A study of Mus musculus with 30 samples.

Results

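The 10 genes described here act in fatty acid uptake, entry into mitochondria and beta-oxidation, without covering every step: *Cd36*, *Cpt1a*, *Cpt1b*, *Cpt2*, *Slc25a20*, *Acadl*, *Acadm*, *Acadvl*, *Hadha* and *Hadhb*. They were chosen by symbol from the 36103 genes of a read count table, and each symbol matched 1 row. RNA had been sequenced from Mtm1-/y mice, labelled Mtm1KO, and WT littermates, in whole heart, liver, diaphragm and gastrocnemius, a fast hindlimb muscle. All mice were male, aged 5 weeks and on a pure 129Pas background, and the Mtm1-/y mice carry a knock-out of *Mtm1*, the X-linked gene of the phosphoinositide phosphatase myotubularin. There were 4 WT and 4 Mtm1-/y libraries of gastrocnemius, 4 and 4 of heart, 4 and 3 of diaphragm, and 3 and 4 of liver, 30 in all. The study's methods count the libraries of a group as separate mice. In whole tissue fewer cells of a type cannot be told apart from less RNA per cell.

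Fatty acids enter muscle cells with the help of CD36, a scavenger receptor of the plasma membrane that also lies on capillary endothelium. After activation to acyl-CoA they cross into mitochondria as carnitine esters. CPT1 on the outer membrane makes the ester and is the step that malonyl-CoA inhibits, the carrier SLC25A20 exchanges it for free carnitine across the inner membrane, and CPT2 gives the acyl-CoA back. Inside, the acyl-CoA dehydrogenases ACADVL, ACADL and ACADM take very long, long and medium chains, and the trifunctional protein, with HADHA as its alpha and HADHB as its beta subunit, carries out the remaining steps on long chains. The heart relies on this pathway for much of its energy, slow and oxidative fibres use it more than fast glycolytic ones, and the liver runs it in fasting to make ketone bodies.

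Libraries held 24873817 to 44289343 counts. Levels are read counts scaled to library size (CPM), with TMM normalization over all 30 libraries, and log2 fold changes come from edgeR's quasi-likelihood test with Benjamini-Hochberg adjustment over all genes tested in the comparison. Called genes are those whose adjusted p was under 0.05. *Mtm1* ranged from 3.49 to 8.19 CPM over the Mtm1-/y libraries and from 15.8 to 26.9 CPM over the WT ones. Defining markers matched the labelled organs, with *Alb* at 111258 CPM or more in liver and *Myh6* at 17845 CPM or more in heart. Some libraries stood apart. The summed CPM of 11 hepatocyte markers lay between 25386 and 48557 in WT diaphragm 1, 2 and 4 and Mtm1-/y diaphragm 2, and between 457 and 3002 in the other 3 diaphragm libraries. WT heart 4 had the highest summed CPM of 8 cardiomyocyte markers (60973 against 41537 to 47677 in the other WT hearts) and the lowest of 8 slow-fibre markers (19430 against 24992 to 27713). The slow-fibre list includes *Myh7*, at 851 CPM or more in every heart library. The cardiomyocyte list includes the atrial and natriuretic peptide genes *Nppa*, *Nppb* and *Myl7*. In heart these sums therefore do not measure slow fibres or the number of cardiomyocytes. The mean log2 CPM of the cardiomyocyte list was 11.1, 10.6, 11.1 and 11.95 in WT hearts 1 to 4. In Mtm1-/y hearts 1 to 4 it was 9.74, 11.3, 9.99 and 10.0. The part of atrial tissue in these values was not tested. Mtm1-/y liver 2 had a macrophage marker sum of 62.1 CPM against 192 to 272 in the other livers, an endothelial one of 143 against 220.4 to 255 and a skeletal fibre one of 149 against 9.63 to 44.01.

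Of all counts, the 10 genes took 0.693% ± 0.103 (SD, n = 4) in WT heart, 0.505% ± 0.0610 (SD, n = 4) in WT diaphragm, 0.237% ± 0.00458 (SD, n = 3) in WT liver and 0.185% ± 0.0225 (SD, n = 4) in WT gastrocnemius. In Mtm1-/y mice the shares were 0.774% ± 0.0174 (SD, n = 4), 0.441% ± 0.0278 (SD, n = 3), 0.257% ± 0.0243 (SD, n = 4) and 0.215% ± 0.0328 (SD, n = 4). Not every read of these genes could be counted. The authors kept only reads that aligned once and fell in 1 gene. *Cpt1b* (chromosome 15 of mm10, 89416405 to 89425863, minus strand) shares 2744 exon bases, 81.4% of its exon length, with *Gm44502* on the same strand, and 93.0% of the 50-base windows of its longest coding transcript lie in both. Its counts were 2 to 782 per library, the lowest of the 10 genes. Of *Hadhb* (chromosome 5, 30155248 to 30184593, plus strand) 62.4% of such windows occur in other genes, most of them in *Gm13910*. The values of both are therefore given within each gene across libraries and are not set against those of other genes. *Acadvl* (chromosome 11, 70010183 to 70015411, minus strand) overlaps *Dvl2* on the opposite strand over 1151 exon bases, and the strand setting of the counting is not given in the sources used here. The share was 4.10% for *Acadm* and 0.655% for *Hadha*, and 0 for the other 5 genes.

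Per kilobase of the longest coding transcript, the dehydrogenases and *Cd36* led the 8 comparable genes in WT heart. *Acadl* stood at 488 ± 82.2 CPM per kilobase (SD, n = 4), *Cd36* at 441 ± 90.9, *Acadm* at 422 ± 94.0 and *Acadvl* at 410.1 ± 81.5. The shuttle genes lay below these, *Slc25a20* at 83.5 ± 12.96, *Cpt2* at 74.9 ± 11.9 and *Cpt1a* at 15.4 ± 3.93 CPM per kilobase. In WT liver *Acadvl* came first (387 ± 15.7, SD, n = 3), *Cpt1a* reached 111 ± 11.4 and *Cd36* came last of the 8 (9.92 ± 0.261). In WT gastrocnemius *Acadvl* was first (203 ± 18.3, SD, n = 4) and *Cpt1a* last (4.26 ± 0.784).

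**Figure D1:**
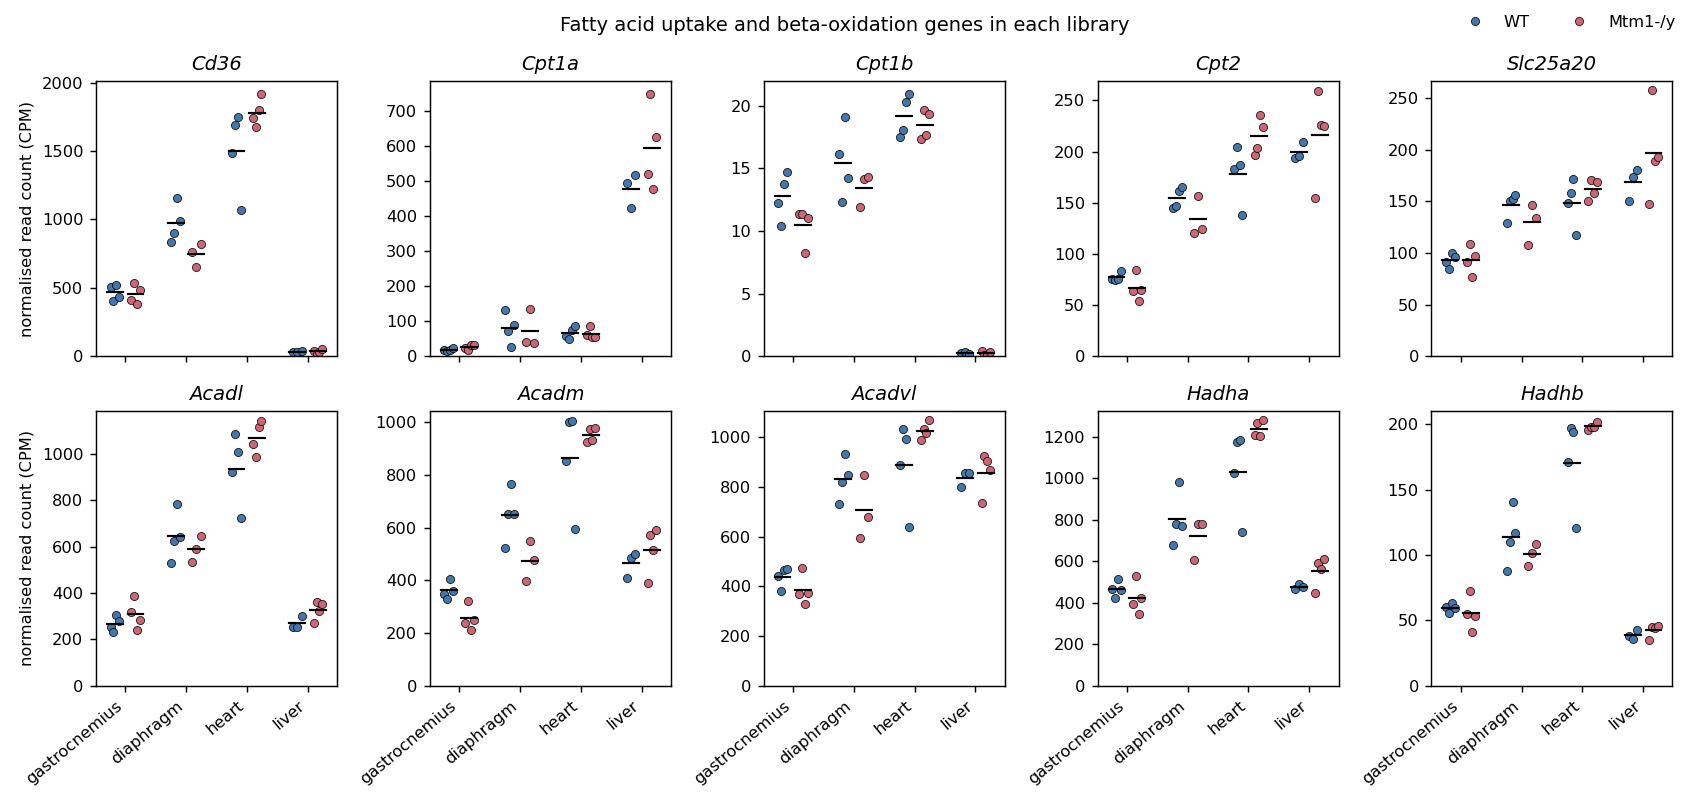
Normalised read count (CPM, vertical axis from 0) of each of the 10 genes in each of the 30 libraries, by tissue, with WT in blue and Mtm1-/y in red. Points are single libraries and bars are group means. *Cd36* was lowest in liver (33.7 CPM in WT) and *Cpt1a* highest there (477 CPM in WT), and WT heart 4 is the low blue point in the heart groups of 8 genes.

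The first question was where each gene is expressed in WT mice. Heart exceeded gastrocnemius for all 10 genes, where 61.3% of the 17725 genes tested were called, 32.6% higher and 28.7% lower, with a median log2 fold change of 1.19 over the 10 genes and 0.08 over all genes. Diaphragm exceeded gastrocnemius for 9 of 10 (54.4% of all genes called, 30.6% higher and 23.8% lower), all but *Cpt1b*. Heart and diaphragm were closer, with 3 genes called higher in heart, where 51.7% of all genes were called, 22.1% higher and 29.6% lower. An unadjusted p under 0.05 was seen for 6 of the 10 and for 57.5% of all genes. DESeq2 called 5 higher (41.8% of all genes called in either direction). By library totals without TMM heart and diaphragm were each called higher than gastrocnemius for 10 of the 10, and 6 were called higher in heart than in diaphragm. These totals moved the median of all genes from 0.08 to 0.67 for heart against gastrocnemius (10373 genes called higher and 2498 lower in place of 5774 and 5094) and from 0.13 to 0.67 for heart against liver. The share of all genes called by library totals is not given here for the comparisons with diaphragm. Their counts under that scaling are therefore not read as an excess. Against liver, heart was higher for 6 genes and lower for *Cpt1a*, with 76.4% of all genes called, 40.8% higher and 35.6% lower. Diaphragm was higher than liver for 6 and lower for *Cpt1a* and *Cpt2*, with 76.1% of all genes called, 40.6% higher and 35.5% lower. Gastrocnemius was higher than liver for 3 and lower for 4, with 79.5% of all genes called, 42.1% higher and 37.4% lower.

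*Cd36*, the uptake receptor (chromosome 5, 17781690 to 17888801, minus strand), was at 1484, 1692, 1752 and 1069 CPM in the 4 WT hearts. The WT diaphragms had 835, 901, 1153 and 992 CPM, the WT gastrocnemius 506, 403, 523 and 434, and the WT livers 32.8, 33.8 and 34.6. Each step in this order passed the test, and the highest mean was 44.4-fold the lowest. On the log2 scale heart exceeded diaphragm by 0.62 (SE 0.16, adjusted p = 0.0051), diaphragm exceeded gastrocnemius by 1.02 (SE 0.16, adjusted p = 0.00013) and gastrocnemius exceeded liver by 3.87 (SE 0.20, adjusted p = 6.8e-10).

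*Cpt1a*, the liver form of CPT1 (chromosome 19, 3322334 to 3385733, plus strand), ran the other way. Levels were 494, 422 and 516 CPM in WT liver and 13.9 to 22.2 CPM in WT gastrocnemius, with means 25.9-fold apart. WT heart held 47.8 to 86.1 CPM. WT diaphragm held 132, 72.0, 26.8 and 87.9 CPM, the widest relative spread of any WT group for this gene, and the 3 libraries over 70 CPM are the 3 with high hepatocyte markers. In the order of levels, diaphragm and heart did not differ beyond their spread (log2 fold change of heart against diaphragm −0.28, SE 0.35, adjusted p = 0.53). The direction depended on which diaphragm libraries entered. Without WT diaphragm 3, the library low in hepatocyte markers, *Cpt1a* was called lower in heart (−0.63, adjusted p = 0.031). Without the 4 libraries high in these markers, an alternative added after seeing the data, it was higher in heart (1.29, adjusted p = 0.012), and diaphragm against gastrocnemius was 0.55 (adjusted p = 0.20). WT diaphragm 3 is then the lone library of its group, assumed to vary like the other groups, so that these values have no replicate check in diaphragm. *Cpt1b*, the muscle form, was at 17.5 to 20.9 CPM in WT heart, 12.3 to 19.1 in diaphragm, 10.4 to 14.7 in gastrocnemius and 0.194 to 0.327 in liver, where it had 4 to 8 counts per library. Only the step from gastrocnemius to liver passed between neighbours in this order (log2 fold change 5.73, SE 0.24, adjusted p = 5.8e-11), and heart against gastrocnemius passed as well (0.55, SE 0.14, adjusted p = 0.0039).

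The inner-membrane steps, *Cpt2* (chromosome 4, 107903981 to 107923610, minus strand) and *Slc25a20* (chromosome 9, 108662088 to 108684641, plus strand), had a flatter pattern than *Cd36* and the CPT1 genes. Their highest means were 2.59-fold and 1.81-fold the lowest. *Cpt2* averaged 199.7 ± 8.09 CPM (SD, n = 3) in WT liver, 178 ± 28.2 (SD, n = 4) in heart, 155 ± 10.3 (SD, n = 4) in diaphragm and 77.2 ± 3.88 (SD, n = 4) in gastrocnemius. *Slc25a20* was at 168 ± 16.0 (SD, n = 3), 149 ± 23.1, 147 ± 12.4 and 93.0 ± 6.70 CPM (SD, n = 4 each) in the same order. By library totals *Cpt2* and *Slc25a20* were higher in heart than in liver (log2 fold changes 0.42 and 0.41) and in diaphragm than in liver (0.16 and 0.33), so that their order against liver turned with the scaling. With TMM, for both genes neighbours among liver, heart and diaphragm did not differ beyond their spread, and gastrocnemius was lower than diaphragm (log2 fold changes of diaphragm over gastrocnemius 0.97, SE 0.11, and 0.63, SE 0.12, adjusted p = 1e-05 and 0.00046). Across the 30 libraries the log2 CPM of these 2 genes had a Pearson r of 0.947, given as a description, since the points share tissue and library.

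Among the dehydrogenases, *Acadl* (chromosome 1, 66830839 to 66863277, minus strand) had the steepest order, with 920.1, 1088, 1010.0 and 722 CPM in WT heart, 528 to 785 in diaphragm, 253 to 302 in liver and 231 to 303 in gastrocnemius. Heart exceeded diaphragm (log2 fold change 0.53, SE 0.15, adjusted p = 0.0091) and diaphragm exceeded liver (1.30, SE 0.17, adjusted p = 9.5e-06). Liver and gastrocnemius overlapped (adjusted p = 0.74). *Acadm* (chromosome 3, 153922357 to 153944632, minus strand) was at 863 ± 192 CPM (SD, n = 4) in heart, 648 ± 98.6 (SD, n = 4) in diaphragm, 465 ± 47.5 (SD, n = 3) in liver and 362 ± 32.4 (SD, n = 4) in gastrocnemius, and of its neighbouring steps only diaphragm over liver passed (0.52, SE 0.18, adjusted p = 0.017). *Acadvl* was at 889 ± 177, 838 ± 34.0 and 833 ± 83.2 CPM in heart, liver and diaphragm, which did not differ beyond their spread, and at 439 ± 39.7 in gastrocnemius (diaphragm over gastrocnemius 0.89, SE 0.15, adjusted p = 0.00017).

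The 2 subunits of the trifunctional protein are transcribed from opposite strands of a shared upstream region. The start sites of *Hadha* (chromosome 5, 30118304 to 30155162, minus strand) and *Hadhb* lie 273 bases apart in RefSeq's table on GRCm38.p6, so that the windows of 250 bases before to 50 after each start overlap over 228 bases. The window of *Hadhb* is shown, with the bases that both windows hold in capitals.
Hadhb, GRCm38.p6, chr5:30155003-30155302, plus strand: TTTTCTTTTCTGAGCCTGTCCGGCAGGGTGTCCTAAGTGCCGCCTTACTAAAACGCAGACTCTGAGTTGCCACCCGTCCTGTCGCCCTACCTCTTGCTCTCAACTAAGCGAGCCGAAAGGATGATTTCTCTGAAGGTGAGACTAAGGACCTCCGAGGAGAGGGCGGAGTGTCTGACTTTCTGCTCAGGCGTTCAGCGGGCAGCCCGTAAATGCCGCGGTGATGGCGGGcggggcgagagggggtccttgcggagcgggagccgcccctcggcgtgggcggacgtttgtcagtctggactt
The WT hearts averaged 1032 ± 207 CPM of *Hadha* (SD, n = 4), with 803 ± 129 (SD, n = 4) in diaphragm, 479 ± 12.0 (SD, n = 3) in liver and 466 ± 37.1 (SD, n = 4) in gastrocnemius. *Hadhb* was at 171 ± 35.5, 114 ± 21.6, 38.8 ± 3.65 and 59.8 ± 3.27 CPM in the same 4 tissues. The lower end of the order differed between them. *Hadhb* was higher in gastrocnemius than in liver (log2 fold change 0.70, SE 0.17, adjusted p = 0.0016), and for *Hadha* the same step was 0.04 (SE 0.17, adjusted p = 0.85). That difference between the genes was not tested. The Pearson r of their log2 CPM over the 30 libraries was 0.929, as a description.

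Promoter windows were found for 9 of the 10 genes among RefSeq's 32817 windows, without *Cpt1b*. On either strand, the nuclear receptor half-site AGGTCA occurs in those of *Acadm*, *Acadvl*, *Cd36* and *Cpt1a* (16.3% of all windows), and the longer AAGGTCA, which contains it, in that of *Acadm* (4.72%). The direct repeat of that half-site with 1 base between (DR1), the form in which PPAR and RXR are known to bind, is in 0 of the 9 windows (0.04% of all). Only exact copies were searched, and 13 of the 32817 windows hold one. The 0 of 9 therefore cannot show whether these genes have such sites. The GC box GGGCGG is in 7 of 9 (35.6%) and CCAAT in 2 of 9 (37.4%). The 9 windows held from 43.0% (*Cd36*) to 70.3% (*Acadl*) G and C, beside a median of 52.7% over all windows. The part of base composition in these counts was not tested. The *Cd36* window belongs to a start site at 17835896, inside the span of the gene, and other starts of it were not searched. TATAAA is in 0 of 9 (13.6%). The window of *Acadm* is printed because it is the 1 gene of the set called between genotypes, with the half-site on the opposite strand (TGACCT) in capitals.
Acadm, GRCm38.p6, chr3:153944594-153944893, minus strand: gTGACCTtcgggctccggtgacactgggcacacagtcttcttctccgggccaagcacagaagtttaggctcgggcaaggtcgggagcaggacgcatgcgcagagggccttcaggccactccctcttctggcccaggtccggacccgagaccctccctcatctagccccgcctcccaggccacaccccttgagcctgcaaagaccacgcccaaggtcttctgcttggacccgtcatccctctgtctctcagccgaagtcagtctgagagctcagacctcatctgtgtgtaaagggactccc
These matches describe letters in a window and not bound sites.

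The main question of the design was what loss of myotubularin does in each organ. In the gastrocnemius 1 of the 10 genes was called, *Acadm*, which fell, where 29% of the 15456 genes tested were called, 14.9% lower and 14.1% higher. With an absolute log2 fold change over 1 as a second threshold 0 of the 10 were called by edgeR (6.63% of all genes). The median log2 fold change of the 10 genes was −0.11, with 3 above and 7 below 0, beside 0.02 over all genes. By library totals 9 were above 0 and 1 below, with a median of 0.22 beside 0.35 over all genes. Without Mtm1-/y 3 the median was −0.0019 with 5 above and 5 below 0, and without Mtm1-/y 2 it was −0.24. With the adipocyte marker score as a covariate it was 0.06, with 6 above and 4 below 0. *Acadm*, the medium-chain dehydrogenase, was at 349, 331, 407 and 361 CPM in WT and 239, 324, 213 and 251 CPM in Mtm1-/y gastrocnemius. The groups do not overlap, as for 16.7% of all genes tested in this direction, and Mtm1-/y 2 lies just below the lowest WT library. The log2 fold change was −0.48 (SE 0.12, adjusted p = 0.016), and it lay between −0.60 and −0.40, with the call kept, when each of the 8 libraries was left out in turn.

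*Cpt1a* was the other gene with an unadjusted p under 0.05 in this muscle, where 41.6% of all genes had one. Its levels were 18.6, 13.9, 18.8 and 22.2 CPM in WT and 22.9, 18.5, 31.4 and 32.9 CPM in Mtm1-/y gastrocnemius, so that Mtm1-/y 2 lies inside the WT range and the other 3 above it. The log2 fold change was 0.54 (SE 0.19, adjusted p = 0.062), and DESeq2 called it higher (adjusted p = 0.033, with 25.7% of all genes called). Without Mtm1-/y 2 edgeR called it too (0.68, adjusted p = 0.017), and *Cpt2* was then called lower (−0.32, adjusted p = 0.020). With all libraries *Cpt2* was at 75.8, 74.8, 75.3 and 83.0 CPM in WT and 63.8, 84.4, 54.2 and 64.8 in the Mtm1-/y muscles (effect −0.20, SE 0.12, adjusted p = 0.23). Its interval and those of the remaining genes other than *Acadm* and *Cpt1a* included 0. The interval ran from −0.31 to 0.25 for *Cd36*, from −0.21 to 0.25 for *Slc25a20* and from −0.09 to 0.52 for *Acadl*, at 231 to 303 CPM in WT and 242 to 386 in Mtm1-/y.

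Mtm1-/y gastrocnemius 2 had the highest level of its group for 9 of the 10 genes and Mtm1-/y 3 the lowest for 9, and WT 2 was the lowest of its group for all 10. These genes were thus high or low together in libraries of 1 genotype, and *Hadha* ranged from 348 to 531 CPM in Mtm1-/y mice and from 422 to 513 in WT. The scaling also bears on the values. Without TMM, by library totals alone, the median of all genes moved to 0.35, with 7647 called higher and 647 lower in place of 2173 and 2306. *Cpt1a* (0.87), *Acadl* (0.55) and *Slc25a20* (0.35) were then called higher, and *Acadm* was not called (−0.15, adjusted p = 0.32). Relative to the median of all genes *Acadm* was at −0.50 under both scalings, *Cpt1a* at 0.52 under both, and *Acadl* at 0.20 under both. A change of scaling shifts all genes by nearly the same amount. These relative values therefore had to agree and are no check on the calls.

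**Figure D2:**
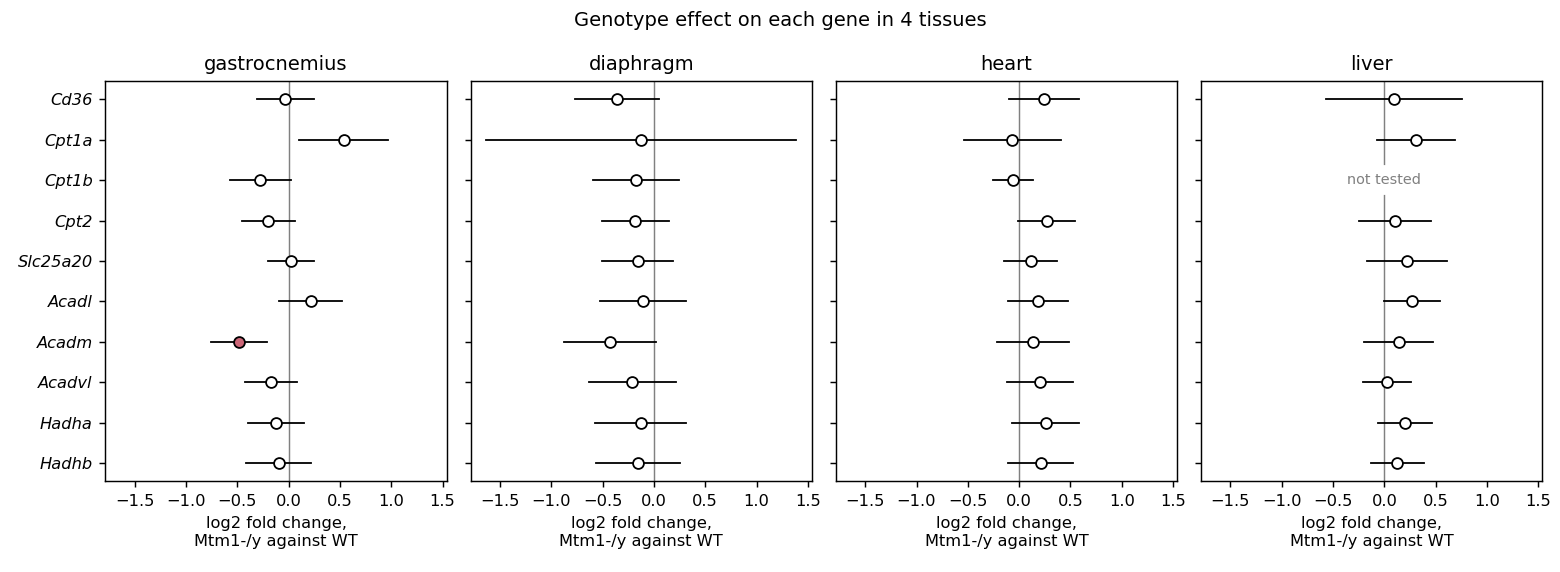
Log2 fold change of Mtm1-/y against WT (horizontal axis) for the 10 genes in each tissue, as edgeR's estimate with its 95% confidence interval, filled where the adjusted p is under 0.05. *Acadm* in the gastrocnemius (−0.48) is the filled point, the 10 diaphragm estimates lie below 0 and the 9 liver estimates above 0, with intervals that include 0.

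The genes around the pathway came from 7 lists, of which 89 genes were tested in the gastrocnemius, with 35 called lower and 7 higher, where 14.9% of all genes were called lower and 14.1% higher. By library totals, which put 92.2% of all calls on the higher side, 6 of the 7 lists had more genes called higher than lower, all but the mitochondrial one. With the adipocyte score as a covariate 1 peroxisomal, 1 triglyceride and 4 mitochondrial genes were called lower and 0 higher in the 7 lists. Of 18 other mitochondrial beta-oxidation enzymes 7 fell and 1 rose with TMM, with a median log2 fold change of −0.17, and 1 fell and 3 rose by library totals, with a median of 0.17. Less the median of all genes, the list's median was −0.18 with TMM and −0.19 by library totals, which agree by construction. The largest falls were those of *Acad11* (−0.56, SE 0.09, adjusted p = 0.0014), a dehydrogenase of longer chains, *Acot13* (−0.43, SE 0.09, adjusted p = 0.0051), a thioesterase, and *Acat1* (−0.43, SE 0.07, adjusted p = 0.0022), a thiolase of acetoacetyl-CoA. *Acot2*, a mitochondrial thioesterase, rose (0.58, SE 0.15, adjusted p = 0.016). Nuclear genes of the TCA cycle, the respiratory chain and mitochondrial upkeep fell in 17 of 18 cases, with a median of −0.46, most of all *Vdac1* (−0.69), *Idh3a* (−0.64) and *Cycs* (−0.60). By library totals 5 of the 18 were called lower and 1 higher. The list's median less that of all genes was −0.47, where TMM gave −0.48, again by construction.

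Of the malonyl-CoA and carnitine partners 2 of 6 fell. *Acacb*, the acetyl-CoA carboxylase that supplies the malonyl-CoA that inhibits CPT1 in muscle, fell by 0.46 on the log2 scale, from 417 to 302 CPM (SE 0.09, adjusted p = 0.0047), and *Crat*, which makes acetylcarnitine, from 626 to 469.8 CPM (−0.40, SE 0.08, adjusted p = 0.0042). Of 15 genes of acid activation and binding 4 fell and 3 rose, where 14.9% of all genes were called lower and 14.1% higher. The falls included *Lpl*, the lipase that frees fatty acids from lipoproteins (643 to 457 CPM, −0.48, SE 0.13, adjusted p = 0.023), and *Gpihbp1*, its anchor on capillaries (−0.56, SE 0.14, adjusted p = 0.015). *Fabp1* (−2.03, adjusted p = 0.042) and *Slc27a5* (−1.05, adjusted p = 0.027), both known from liver, had means of 3.28 CPM or less. Hepatocyte markers were lower in Mtm1-/y gastrocnemius too, as given below, and the part of liver RNA in these falls was not tested. *Fabp4*, a carrier of adipocytes and endothelium, rose (0.44, SE 0.11, adjusted p = 0.012), as did *Acsl6* (0.39) and *Dbi* (0.38).

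Among 13 PPAR targets and regulators 3 fell and 1 rose with TMM, and 1 fell and 4 rose by library totals. With TMM 29% of all genes were called, 14.9% lower and 14.1% higher, so the number called in this list is near the share over all genes. *Ppara*, the receptor that drives fatty acid oxidation genes, fell by 0.90 on the log2 scale, from 8.33 to 4.44 CPM (SE 0.13, adjusted p = 0.0011), its partner *Rxra* from 238 to 167 CPM (−0.50, SE 0.07, adjusted p = 0.0012) and the coactivator *Ppargc1a* from 35.9 to 23.5 CPM (−0.60, SE 0.13, adjusted p = 0.0064). *Angptl4*, an inhibitor of lipoprotein lipase, rose from 7.41 to 23.8 CPM (1.70, SE 0.34, adjusted p = 0.0054). Of 11 genes of triglyceride storage and release *Plin2* (0.53) and *Dgat1* (0.39) rose and *Plin3* fell (−0.70), and of 8 peroxisomal genes *Abcd2*, an importer of very long acyl-CoA, fell (−0.71, SE 0.08, adjusted p = 0.00035).

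**Figure D3:**
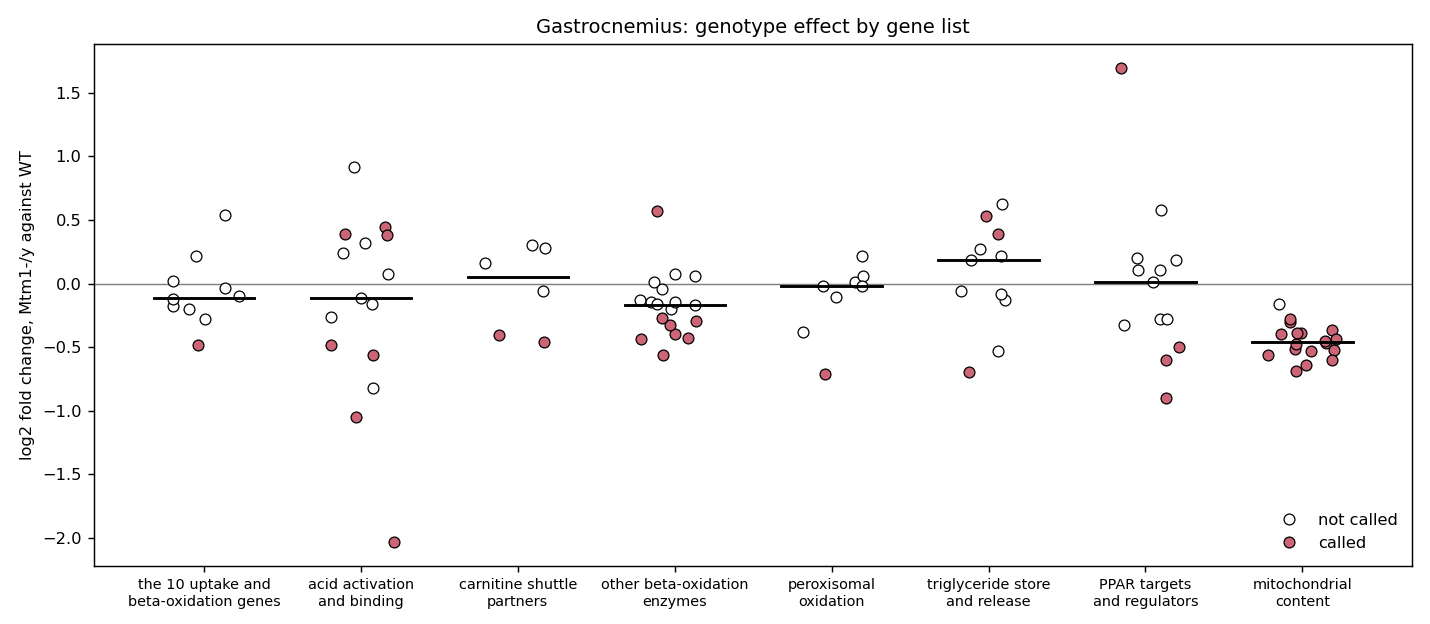
Log2 fold change of Mtm1-/y against WT in the gastrocnemius (vertical axis) for each gene of the set of 10 and of the 7 lists around the pathway, with called genes filled and a bar at each list's median. The mitochondrial content list lies below 0 (median −0.46, 17 of 18 called), and the set of 10 lies around its median of −0.11 with 1 called.

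Markers of other cells moved with genotype in this muscle. Of 9 white adipocyte markers 7 rose, with summed CPM of 59.7 to 166 in WT and 133 to 245 in Mtm1-/y. Of 8 macrophage markers 7 rose (52.5 to 90.9 against 155 to 188 CPM). Of 10 endothelial markers 4 fell (587 to 726 against 421 to 532 CPM), and of 9 skeletal fibre markers 7 fell and *Myh1* and *Myh2* rose. *Adipoq* was at 3.83 to 14.97 CPM in WT and 15.2 to 23.6 in Mtm1-/y. With the adipocyte score as a covariate *Acadm* was at −0.24 (adjusted p = 0.48) and *Cpt1a* at 0.03 (adjusted p = 0.97), and of all genes 389 were called higher and 471 lower. Of 11 hepatocyte markers 3 fell and 9 had an unadjusted p under 0.05 (41.6% of all genes), with a median log2 fold change of −1.96. Their summed CPM was 34.7 to 127.6 in WT and 4.45 to 62.5 in Mtm1-/y. Of 8 slow-fibre markers 1 fell, and of 4 cardiomyocyte markers tested 2 rose and 1 fell. The adipocyte score and the genotype differ together here, and their parts cannot be told apart.

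In the diaphragm 0 of the 10 genes was called by edgeR (0.0119% of 16796 genes in all) or by DESeq2 (2.37%), and 0 had an unadjusted p under 0.05. All 10 estimates were below 0, with a median of −0.17 beside −0.01 over all genes. The genes were again high or low together in single libraries. Mtm1-/y diaphragm 1 was the lowest of its group for 8 of the 10, WT 1 the lowest for 8 and WT 3 the highest for 7. Without Mtm1-/y 1 the median was −0.08 with 1 above 0, and without WT 3 it was −0.13 with 2 above 0. Without Mtm1-/y 2 it was −0.28 with all 10 below 0. *Cd36* was at 835, 901, 1153 and 992 CPM in WT and 765, 654 and 818 CPM in Mtm1-/y diaphragm. The groups do not overlap, as for 9.94% of all genes tested (5.54% lower and 4.41% higher), and the log2 fold change was −0.36 (SE 0.17, adjusted p = 0.53). The summed CPM of 10 endothelial markers did not overlap either, at 700.5 to 800.3 in WT and 589 to 667 in Mtm1-/y diaphragm. Of these markers 0 were called by edgeR or DESeq2 and 3 had an unadjusted p under 0.05 (10.8% of all genes). Their part in the *Cd36* values was not tested. *Acadm* was at 525, 650.3, 766 and 653 CPM in WT and 396, 548 and 476 CPM in Mtm1-/y, which overlap by the lowest WT library (−0.43, SE 0.19, adjusted p = 0.49). Its interval, from −0.88 to 0.02, includes the gastrocnemius estimate.

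*Cpt1a* had the same order over the 7 diaphragm libraries as the hepatocyte marker sum. Its 4 highest values, 136, 132, 87.9 and 72.0 CPM, belong to the 4 libraries with the highest hepatocyte sums, 48557, 37488, 28048 and 25386 CPM, in the same order. The 3 others, at 40.9, 38.0 and 26.8 CPM, had sums of 3002, 810.1 and 457 CPM. The genotype effect was −0.12 (SE 0.64, adjusted p = 0.98), with an interval from −1.63 to 1.39. With the hepatocyte score as a covariate it was 0.14 (adjusted p = 0.81), *Cd36* was at −0.41 (adjusted p = 0.19) and *Acadm* at −0.44 (adjusted p = 0.31), with 26 of all genes called higher and 25 lower. Without the 4 libraries high in hepatocyte markers it was 0.56 (adjusted p = 0.60), *Acadm* was at −0.81 (adjusted p = 0.60) and *Cd36* at −0.54 (adjusted p = 0.64), from 1 WT and 2 Mtm1-/y libraries, where the lone WT library is assumed to vary like the others. Of the 91 list genes 0 were called in the diaphragm by either tool, with 8 at an unadjusted p under 0.05 (10.8% of all genes).

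**Figure D4:**
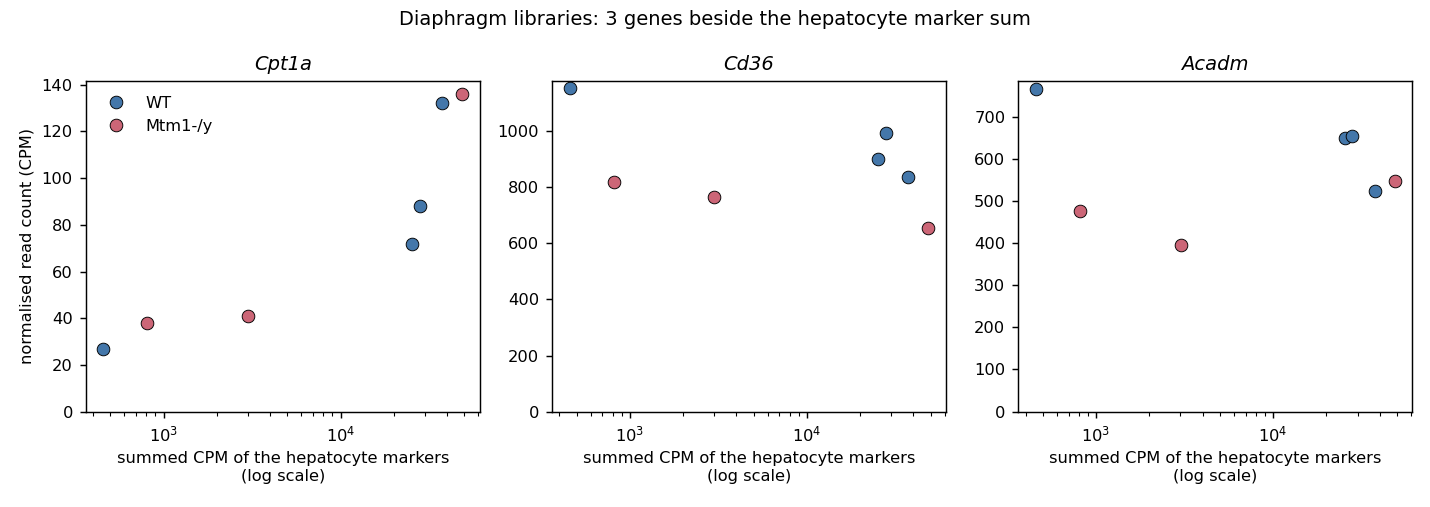
Normalised read count (CPM, vertical axes from 0) of *Cpt1a*, *Cd36* and *Acadm* in the 7 diaphragm libraries against the summed CPM of 11 hepatocyte markers (horizontal log axis), with WT in blue and Mtm1-/y in red. *Cpt1a* lies at 26.8 to 40.9 CPM in the 3 libraries with sums up to 3002 CPM and at 72.0 to 136 CPM in the other 4, and the red points of *Cd36* lie below the blue ones.

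In the heart 0 of the 10 genes was called by edgeR (0.00656% of 15238 genes) or by DESeq2 (0.453%), and 0 had an unadjusted p under 0.05. Of the estimates 8 were above 0 and those of *Cpt1a* and *Cpt1b* below, with a median of 0.19 beside −0.0016 over all genes. *Hadha* was at 1029, 1175, 1184 and 741 CPM in WT and 1210.3, 1266, 1204 and 1281 CPM in Mtm1-/y heart. The groups do not overlap, as for 4.17% of all genes tested, 2.15% higher and 2.03% lower (log2 fold change 0.26, SE 0.14, adjusted p = 0.55). *Cpt2* was at 182, 204, 187 and 138 CPM in WT and 196, 204, 236 and 224 in Mtm1-/y (0.27, SE 0.12, adjusted p = 0.55).

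WT heart 4 was the lowest WT heart for 8 of the 10 genes, at 62.4% (*Acadm*) to 73.5% (*Slc25a20*) of the mean of the other 3, and the highest for *Cpt1a* (144%) and *Cpt1b* (112%). Without it the log2 fold changes of those 8 genes were smaller, *Cd36* at 0.11 in place of 0.24, *Hadha* at 0.13 in place of 0.26, *Cpt2* at 0.17 in place of 0.27 and *Acadm* at −0.0024 in place of 0.14. The SE of *Hadha* was then 0.07 in place of 0.14. The spread of the Mtm1-/y hearts was narrow, as for *Hadhb* at 196, 198, 198 and 202 CPM against 171, 197, 194 and 120.5 in WT. White adipocyte markers were lower in Mtm1-/y heart (summed 72.8 to 94.9 against 104 to 223 CPM), with 7 of 9 called lower by DESeq2 and 0 by edgeR (7 at an unadjusted p under 0.05). Hepatocyte markers had a median log2 fold change of 2.16 in heart, with summed CPM of 5.16 to 91.2 in WT and 49.8 to 139 in Mtm1-/y, 10 of 11 at an unadjusted p under 0.05, 2 called higher by DESeq2 and 0 by edgeR. With the adipocyte score as a covariate 8 of the 10 estimates were below 0, with 0 called (median −0.24). The score and the genotype differ together in heart as well, so that their parts cannot be told apart. Of 90 list genes tested 0 were called in the heart by either tool, with 10 at an unadjusted p under 0.05 (8.88% of all genes).

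In the liver *Cpt1b*, with 2 to 10 counts per library, did not pass the filter on low counts, and 0 of the other 9 genes was called by edgeR (0% of 14305 genes) or by DESeq2 (0.163%), with 0 at an unadjusted p under 0.05. All 9 estimates were above 0, with a median of 0.14. *Mtm1* itself was not called in liver (log2 fold change −1.60, SE 0.23, adjusted p = 0.37), so that these counts do not show that the genes were unchanged. *Cpt1a* was at 494, 422 and 516 CPM in WT and 520.2, 749, 478 and 627 CPM in Mtm1-/y liver (log2 fold change 0.31, SE 0.17, adjusted p = 0.97). The highest value is that of Mtm1-/y liver 2, without which *Cpt1a* was at 0.18 and the median of the 9 genes at 0.0957. The groups overlap for this gene and for the others, and of all genes tested 2.22% did not overlap and were higher and 3.33% lower. *Acadl* was at 254, 253 and 302 CPM in WT and 272, 361, 322 and 352 in Mtm1-/y (0.27, SE 0.12, adjusted p = 0.97). *Acadvl*, the dehydrogenase with the highest liver level, had the smallest estimate (0.03, SE 0.10). Of 88 list genes tested 0 were called in the liver by edgeR, 6 had an unadjusted p under 0.05 (4.24% of all genes), and DESeq2 called 1.

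Whether the genotype effect differed between organs was tested as a contrast of the effects. These comparisons share libraries, so their values stand side by side. For heart minus gastrocnemius 1 of 10 genes was called (19.8% of 16627 genes, 9.94% higher and 9.89% lower). It was *Acadm*, with a difference of 0.64 on the log2 scale (SE 0.21, adjusted p = 0.046, DESeq2 adjusted p = 0.012 with 22% of all genes called), from an effect of 0.14 in heart and −0.48 in gastrocnemius. The call was lost without any 1 of 13 of the 16 libraries (differences of 0.48 to 0.68, adjusted p up to 0.094) and kept without WT heart 2, WT heart 3 or Mtm1-/y gastrocnemius 2. The smallest difference, 0.48, was that without WT heart 4. Library totals moved the median of all genes from −0.03 to −0.44 (405 genes called higher and 6577 lower in place of 1652 and 1645). With them *Acadm* was not called (0.24, adjusted p = 0.32). The genotype effect on *Cpt1a* was then called lower in heart than in gastrocnemius (−0.998, adjusted p = 0.025). *Cpt2* differed by 0.48 (SE 0.18, adjusted p = 0.072, DESeq2 adjusted p = 0.029), and *Cpt1a* by −0.58 (SE 0.31, adjusted p = 0.19).

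For heart minus diaphragm 0 genes were called by edgeR (0.00573% of 17466 genes) or by DESeq2 (1.17%). An unadjusted p under 0.05 was seen for 3 of the 10 and for 10.6% of all genes. The 3 were *Cd36* (0.62, SE 0.23, adjusted p = 0.37), *Cpt2* (0.46, SE 0.18, adjusted p = 0.40) and *Acadm* (0.58, SE 0.25, adjusted p = 0.44). All 10 differences were above 0. For diaphragm minus gastrocnemius 0 were called by either tool (0.28% by edgeR and 2.04% by DESeq2 over all genes) and 0 had an unadjusted p under 0.05. The difference was 0.04 for *Acadm*, with an interval from −0.43 to 0.51, and −0.34 for *Cd36*, with an interval from −0.77 to 0.10. For liver minus gastrocnemius edgeR called 0 of the 10 (6.34% of 17179 genes in all), 1 had an unadjusted p under 0.05 (22.3% of all genes), and DESeq2 called 1 (11.9%). It was *Acadm* in both cases, at 0.66 (SE 0.21). Its adjusted p was 0.078 with edgeR's test and 0.031 with that of DESeq2.

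The genes whose log2 CPM followed each of the 10 most closely over the 30 libraries, among the 9253 genes averaging 10 CPM or more, are given as a description. The libraries fall into organs, so that a correlation mostly reflects differences between organs. *Acadvl* was followed most closely by *Etfa*, *Eci1* and *Etfdh* (Pearson r 0.992, 0.983 and 0.9751), which encode electron transfer and auxiliary enzymes of beta-oxidation. *Cpt2* was followed by *Echs1*, *Etfdh* and *Acadvl* (0.987, 0.968 and 0.968), and *Slc25a20* by *Cpt2*, *Acaa2* and *Echs1* (0.947, 0.938 and 0.932), all genes of the same pathway. *Acadl* was followed by *Mdh1*, *Hadha* and *Hadhb* (0.973, 0.970 and 0.964), and *Hadha* by *Mdh1*, *Ptgr2* and *Acadl* (0.984, 0.977 and 0.970). For *Acadm* they were *Khdrbs3*, *Gm5131* and *Grb14* (0.981, 0.980 and 0.971), of which *Gm5131* shares sequence with it. *Cd36* had *Plekhb2*, *Hspa12a* and *Fmnl1* (0.990 each), *Cpt1a* had *Nucb1*, *Prdx4* and *Fam32a* (0.986, 0.983 and 0.983), *Cpt1b* had *Klhdc1*, *Parvb* and *Mast2* (0.989, 0.989 and 0.988), and *Hadhb* had *Btnl9*, *Idh2* and *Prdx2* (0.978, 0.978 and 0.972). Within the set, *Acadl* and *Hadha* were the most alike pair (0.970) and *Cpt1a* and *Cpt1b* the least (−0.839).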

How the data were processed

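Libraries were made from whole frozen tissue with a stranded mRNA kit and sequenced as single reads of 50 bases. The authors trimmed reads with cutadapt 1.10, used STAR 2.5.3a for alignment to mm10, and counted uniquely aligned, unambiguous reads per gene with HTSeq 0.6.1p1. The deposited values are raw counts per gene, and samples were grouped by the tissue and genotype labels. Each comparison was fitted over all genes with edgeR 4.0.16 in R 4.3.3 (filterByExpr with a minimum count of 10, TMM, quasi-likelihood test, Benjamini-Hochberg adjustment), with 1 fit per tissue for the genotype effect, 1 fit per pair of tissues for differences of effects and 1 fit of all WT libraries. The SE is the log2 fold change divided by the square root of F. Alternatives were DESeq2 1.42.0, limma 3.58.1, other scalings and filters, marker scores as covariates, a replicate block and leaving out each library. The scripts were tested on simulated data. The 10 genes and all lists were chosen with earlier results of these data known. From each list the text names up to 3 called genes in each direction with the largest change, and *Lpl*, *Myh1* and *Myh2* were named after their values were seen. Likeness was computed over genes averaging 10 CPM or more.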

Additional observations from a re-analysis of the deposited data

Results flagged for a closer look

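In groups of 4 libraries, 1 library lay far from the other 3 in 3 of 60 groups tested, where chance gives about 1 in 20. *Cpt1b* in Mtm1-/y gastrocnemius 3 was at 8.24 CPM, below 11.01 to 11.3 CPM in the others of its group. *Cpt2* in WT gastrocnemius 4 was at 83.0 CPM, above 74.8 to 75.8 CPM. *Hadhb* in Mtm1-/y liver 1 was at 35.0 CPM, below 44.2 to 46.0 CPM. The genotype effect on *Acadm* differed between heart and gastrocnemius by 0.64 on the log2 scale (SE 0.21, edgeR adjusted p = 0.046). It was 0.24 (adjusted p = 0.32) by library totals, and over the alternatives that kept all 16 libraries its adjusted p lay between 0.012 and 0.32.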

How the results depend on the processing

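Of 115 counts of called genes recomputed under settings other than leaving out 1 library, 99 stayed within 1.5 times the reported count. The counts that follow are of the 10 genes, without the share over all genes, and show only how calls depend on the setting. In the gastrocnemius 1 gene was called, 3 by library totals, 2 by DESeq2, 2 with a replicate block (adding *Cpt1a*, 0.52, adjusted p = 0.0088), 0 with the adipocyte covariate, 0 past a log2 fold change of 1, and 1 to 3 without 1 library. For heart minus gastrocnemius 1 was called, 2 with DESeq2's size factors, 2 by DESeq2, 0 without a filter, 0 with a replicate block (*Acadm* 0.66, adjusted p = 0.053), 0 from a fit of all 30 libraries, and 0 to 2 without 1 library. For liver minus gastrocnemius 0 were called, 1 by DESeq2, and 0 to 1 without 1 library (*Acadm* without Mtm1-/y liver 1, 0.76, or Mtm1-/y gastrocnemius 2, 0.77). For WT heart against diaphragm 3 were called, 6 by library totals, 5 by DESeq2, 6 by DESeq2 on all 30 libraries, 5 with a replicate block, 1 without the 4 diaphragm libraries high in hepatocyte markers, and 3 to 7 without 1 library (7 without WT diaphragm 3, 6 without WT heart 4). Among values called in at least 1 of the settings compared, directions turned for *Cpt1a* in WT heart against diaphragm without those 4 libraries (1.29), and by library totals for *Cpt2* (0.42) and *Slc25a20* (0.41) in heart against liver and in diaphragm against liver (0.16 and 0.33). Uncalled genotype estimates changed sign too, in 10 of 76 values in gastrocnemius and 10 of 90 in heart under settings other than leaving out 1 library. The cause was not tested. Libraries with the same replicate number did not deviate together in every pair of any 2 groups. Correlations were −0.578 to 0.404 between genotypes within tissues and −0.16 to 0.233 between tissues of 1 genotype. Such correlations cannot show whether organs came from the same mouse, so pairing between tissues is not known here. The main fits treated all libraries as unpaired. With 3 or 4 libraries a group, a gene that was not called is not shown to be unchanged.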
